A study of Mus musculus with 2 samples.

Results

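The cells described here are the 1053 wild-type cells that the authors named MI, read as the first meiotic division, and placed in cluster 8 of their deposited clustering. They were taken from the authors' cell table by these 2 labels, with no choice by gene level, and they are 1053 of the 17253 annotated cells of the series. They made up 12.5% (11.8 to 13.2) of the 8420 wild-type cells and 44.9% (42.9 to 47.0) of the 2344 wild-type MI cells. The wild-type library came from testis of adult C57BL/6 mice, and the other library from testis of adult C57BL/6 mice of genotype Zfp541-/-. In both, tissue was digested with enzymes, tetraploid germ cells were sorted by flow cytometry, and 10x Chromium 3' libraries were made. The sample titles say whole testis, so the sort is taken from the protocol. The number of mice behind each library and the way the Zfp541 allele was made do not stand in the labels or protocols, and no drug or other treatment is named. Cluster 8 was compared with 2234 wild-type cells named D, read as diplotene (clusters 1, 3 and 9), with 914 MI cells of cluster 6 and with 377 MI cells of cluster 14.

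Male germ cells leave a long meiotic prophase through diplotene, when homologous chromosomes stay joined only at crossovers. CDK1 with a cyclin partner then drives chromosome condensation, spindle assembly and attachment of kinetochores, and the anaphase-promoting complex (APC/C) destroys cyclins and securin to let chromosomes separate. In mouse spermatocytes the germ line cyclin A1 is required for this entry into division. Many proteins of the sperm head and tail are encoded by transcripts that are made during these meiotic stages and used later.

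Each genotype had 1 library, so no comparison below has a replicate check and no p-value is given. Intervals in brackets are exact 95% intervals for counting error only, and PCR and differences between mice lie outside them. Levels are counts of unique molecular identifiers (UMIs) summed over the cells of a group and scaled per 1000000 UMIs (CPM). D cluster 9 held 17029774 of the 31476811 UMIs of D, so a level in D as a whole leans toward that cluster. The kit counts 3' ends, so a CPM is not divided by transcript length and levels are compared only within a gene. A log2 ratio is that of cluster 8 to the other group, with 0.5 counts added to each sum. Because clusters were made from these same genes, every difference between clusters is a description of cells that were separated by expression.

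Cluster 8 had a median of 13569 UMIs and 3191 genes per cell, against 14074.5 and 3445.5 in MI cluster 6, 12941 and 3422 in MI cluster 14 and 11251 and 3261 in D. It held 15715444 UMIs in all. The libraries shared 42 barcodes, and 2 of the 1053 barcodes of cluster 8 were also annotated in the other library. No doublet caller was run and the labels do not say whether doublets were removed before deposit. Of the 1053 cells, 48 (4.56%) had over 2 times the median UMIs. The library labelled Zfp541-/- had 0 of 8833 annotated cells in cluster 8, which allows a share of up to 0.0340%, and 0 MI cells, while 13 of its cells were named D. Zfp541 itself was at 36.2 CPM in cluster 8, and a 3' tag outside the deleted part of a gene would not check the genotype.

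The MI name was set beside the leading genes of the cluster. Among the 10 genes with the highest fold over all other wild-type cells, 4 were on the list of 19 diplotene and meiotic division markers, namely Ccna1, Sptbn4, Ccnb1 and Rgcc. That list holds the 6 genes given as markers of cluster 8, which include Ccna1, Sptbn4 and Rgcc, so Ccnb1 is the only hit that was not fixed by them. The other 6 genes, among them Spns1 and Ptpn18, were on none of the marker lists. None of the 10 was on a marker list of spermatogonia, leptotene to zygotene, pachytene, round or elongating spermatids, or somatic cells. MI cluster 6 had 2 of these division markers in its own 10, Plk1 and Cenpe, and MI cluster 14 had 0. Somatic cell markers were close to absent: the 10 Sertoli markers summed to 10.1 CPM (D 13.9, MI cluster 6 7.08, MI cluster 14 5.65), with Sox9, Wt1 and Gata4 at 0. The 8 Leydig markers summed to 1.27 CPM with 6 of them at 0, the 8 endothelial markers to 1.40 CPM with 3 at 0, and the 10 macrophage and leukocyte markers to 14 CPM with 2 at 0. The 8 peritubular myoid markers summed to 5.22 CPM, and 6 of 7 red cell markers were at 0. The 12 spermatogonia markers summed to 1729 CPM (D 1033, MI cluster 6 1260, MI cluster 14 1113), most of it Dmrtb1 at 1657 CPM. Dmrtb1 had log2 ratios of 0.84 to D and 0.49 to MI cluster 6. Of the 12 round spermatid markers, 8 were under 20 CPM, among them the acrosomal membrane protein gene Spaca1 at 3.05 CPM against 199.5 CPM in the earliest round spermatids, named RS.1. The other 4 were near their RS.1 level: Acr, the proacrosin gene, was at 146 CPM (RS.1 142), Tsga10ip at 122 CPM (148), Tex21 at 58.7 CPM (69.6) and Lrriq1 at 47.1 CPM (61.0). Tex21 and Tsga10ip had log2 ratios of 1.14 and 1.03 to D.

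In the authors' pseudotime score, a deposited number with no unit, cluster 8 lay last among the D and MI clusters. Its median was -2254, its 5th and 95th percentiles were -4314.4 and -1522.6, and the whole cluster ran from -5296 to -1470. The medians were -9059.5, -6638.5 and -5574 in D clusters 1, 3 and 9, -4992 in MI cluster 14, -2885.5 in MI cluster 6 and -1299 in RS.1. Of the 1053 cells, 774 (73.5%) lay above the median of MI cluster 6 and 164 above its maximum, and 0 reached the lowest RS.1 cell. The 2 MI clusters overlapped all the same, since 99.1% of MI cluster 6 lay between the 5th and 95th percentiles of cluster 8. The authors' own cluster order, a separate column of the cell table, puts cluster 8 at place 20, before MI cluster 6 at place 21 and after MI cluster 14 at place 19. The deposited score and the deposited order therefore disagree on which MI cluster is last.

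**Figure D1:**
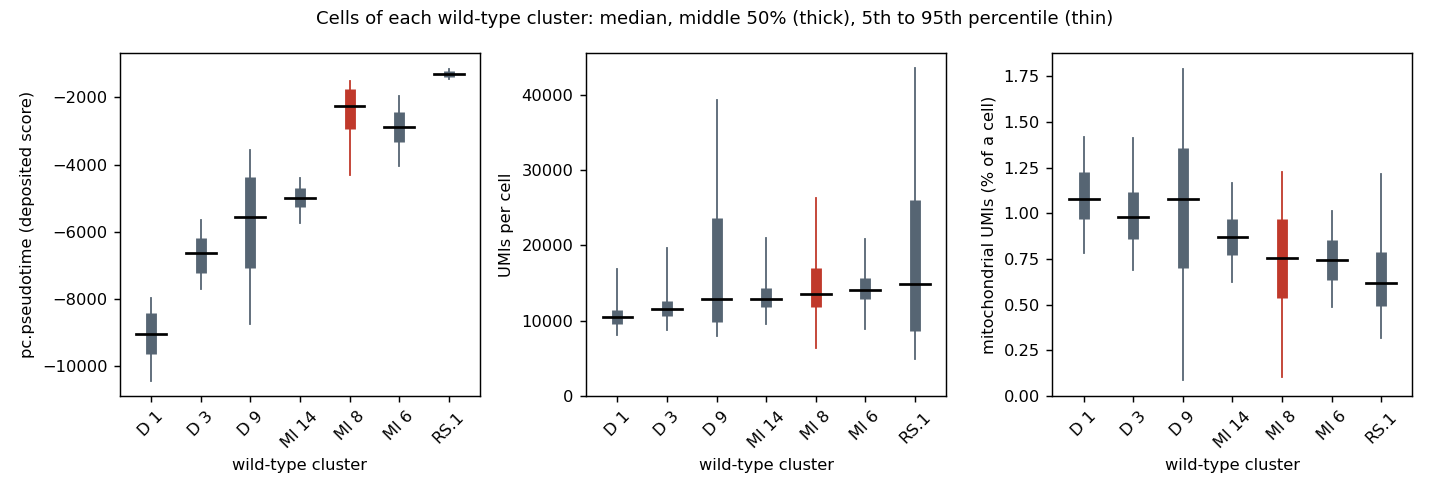
Cells of 7 wild-type clusters, with the authors' pseudotime score (no unit), UMIs per cell and percent of a cell's UMIs from mitochondrial genes on the vertical axes. Black lines are medians, thick bars the middle 50% of cells and thin lines the 5th to 95th percentiles; cluster 8 is red, has the highest pseudotime of the D and MI clusters (median -2254) and, like D cluster 9, a wide spread of the mitochondrial share.

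The authors' other clustering resolutions differed on whether cluster 8 stands apart from D cluster 9. At resolution 0.2, 917 of the 1053 cells shared a cluster with 971 of the 976 cells of D cluster 9, while 57 joined MI cluster 6 and 79 joined MI cluster 14 and D cluster 3. At resolution 0.6, 1051 of the 1053 cells formed a cluster that held none of the D, MI cluster 6 or MI cluster 14 cells, and all 976 cells of D cluster 9 were in another. At resolution 0.8 cluster 8 split into 253 cells (24.0%) that grouped with 455 cells of D cluster 9 and 800 cells (76.0%) in another cluster. That cluster held none of the D, MI cluster 6 or MI cluster 14 cells, and cells of other stages were not counted. The 253 cells had a median pseudotime of -3710 and the 800 cells of -1959.5, so the split came with a difference in score. Over all genes, cluster 8 was nonetheless closest to MI cluster 6, with a median absolute log2 ratio of 0.23, followed by RS.1 at 0.30, D cluster 9 at 0.34, MI cluster 14 at 0.36, D cluster 3 at 0.48 and D cluster 1 at 0.69. In cluster 8, 8.72% of genes were at least 2-fold higher and 25.4% lower than in D cluster 1, 4.05% and 15.8% than in D cluster 3, and 2.88% and 4.35% than in D cluster 9. The shares were 2.04% and 11.7% against RS.1 and 11.2% and 28.4% against late pachytene (lP). Between the 253 and the 800 cells they were 1.85% and 0.429%.

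The 6 genes given as markers of cluster 8 were higher in cluster 8 and MI cluster 6 than in MI cluster 14, D or RS.1. Ccna1 encodes cyclin A1. It was at 54.6, 136.4 and 155.4 CPM in D clusters 1, 3 and 9, 202.1 CPM in MI cluster 14, 463 CPM (453 to 474) in cluster 8, 374 CPM in MI cluster 6 and 194 CPM in RS.1. Cluster 8 was the highest of these groups, with log2 ratios of 1.86 (1.80 to 1.91) to D, 1.20 (1.10 to 1.29) to MI cluster 14 and 0.31 (0.26 to 0.36) to MI cluster 6. Rhcg, which encodes an ammonium transporter, was at 39.8 CPM in D, 75.9 in MI cluster 14, 119 in cluster 8 and 114 in MI cluster 6. Sptbn4, a beta spectrin of the membrane skeleton, was at 49.6, 104 and 146 CPM in D, MI cluster 14 and cluster 8 and at 142 CPM in MI cluster 6. For both genes the ratio between cluster 8 and MI cluster 6 had an interval that held 0, at 0.06 (-0.04 to 0.16) and 0.04 (-0.05 to 0.12).

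Slc2a8, the glucose transporter GLUT8, was at 41.1, 60.4, 101 and 86.1 CPM in D, MI cluster 14, cluster 8 and MI cluster 6. Rgcc, a small regulator that binds CDK1, was at 33.3, 64.2 and 117 CPM in D, MI cluster 14 and cluster 8 and was higher still in MI cluster 6, at 131 CPM. Neil3, a DNA glycosylase that removes oxidised bases, was at 34.4, 56.8, 72.2 and 63.8 CPM in the same groups in that order. All 6 were at least 2-fold higher than in D, where 202 of 4980 genes compared (4.06%) were. Only Ccna1 was so against MI cluster 14 (43 of 4965 genes, 0.866%), and none was against MI cluster 6 (10 of 4724 genes, 0.212%). A gene was compared where either group had at least 20 CPM.

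The share of cells with a UMI was taken for Ccna1 and Ccnb1. At least 1 Ccna1 UMI was found in 98.9% (98.02 to 99.4) of cluster 8 cells, 98.6% of MI cluster 6, 94.7% of MI cluster 14 and 68.7% of D. In the 122 wild-type cells named as stages before pachytene, with a median of 2227 UMIs, the share was 1.64% (0.199 to 5.80). After each cell was thinned to 6000 UMIs, which left out 38 cells of cluster 8, the shares were 92.4%, 89.1%, 69.7% and 46.6%. The order was not the same for every marker: Sptbn4 was found in 83.9% of cluster 8 cells and 86.0% of MI cluster 6 cells. For Ccnb1 the shares before thinning were 70.7% (67.8 to 73.4) in cluster 8, 83.2% in MI cluster 6, 34.0% in MI cluster 14 and 14.5% in D. In the early cells 27.0% had a Ccnb1 UMI. The early cells are much shallower, so their share of Ccna1 is a rough guide to free RNA only.

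**Figure D2:**
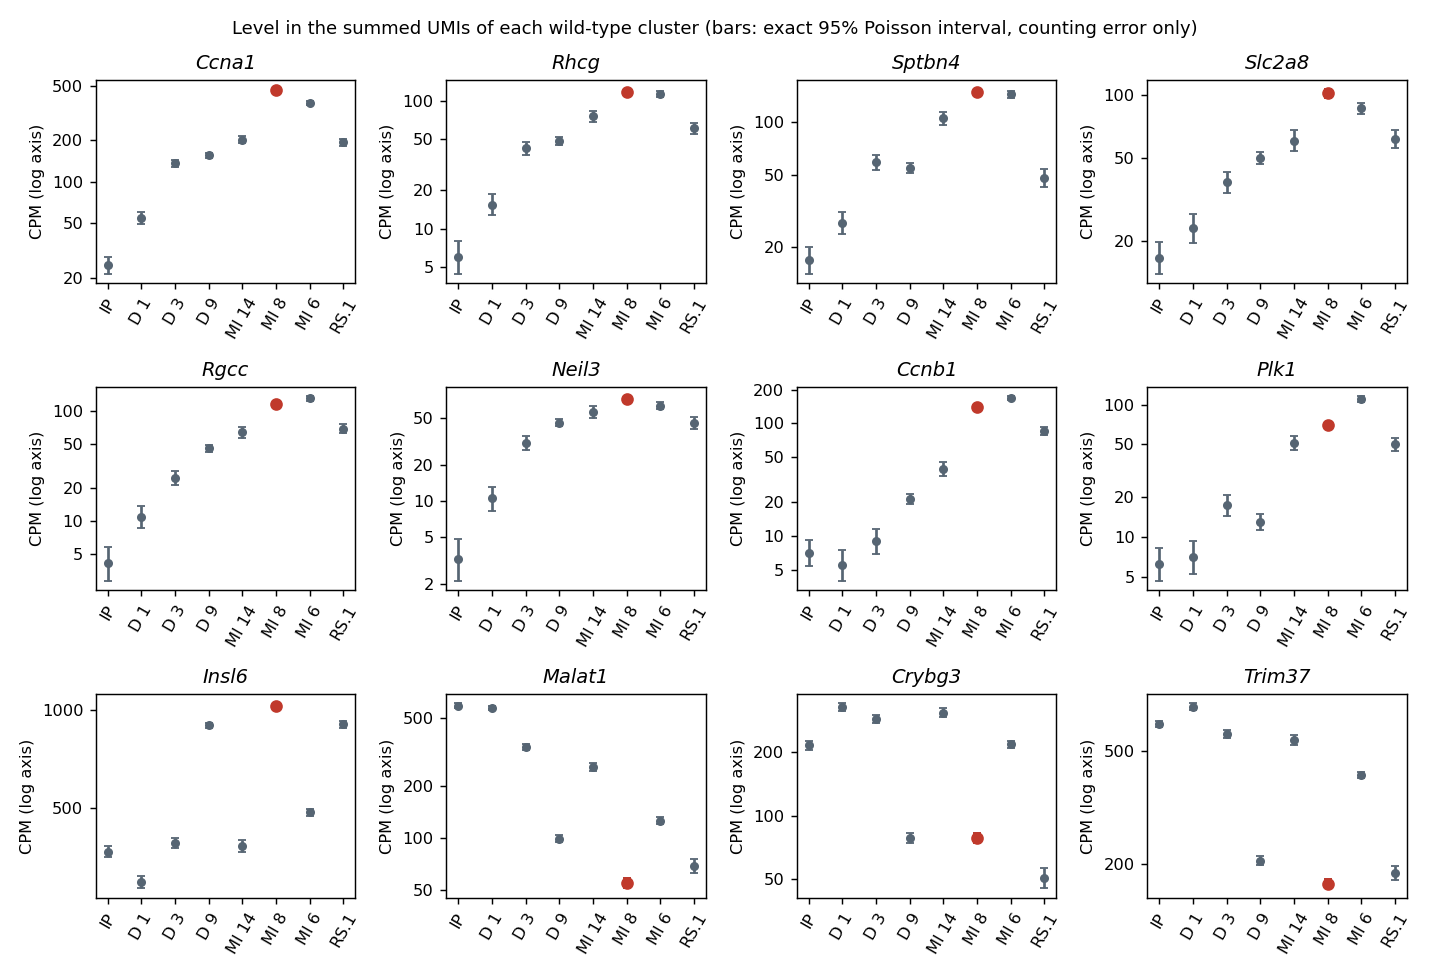
Level of 12 genes in the summed UMIs of 8 wild-type clusters, in CPM on a log axis, with exact 95% Poisson intervals and cluster 8 in red. The 6 markers and Ccnb1 and Plk1 are highest in cluster 8 or MI cluster 6, whereas Insl6, Malat1, Crybg3 and Trim37 have cluster 8 and D cluster 9 together on one side and D clusters 1 and 3 with both other MI clusters on the other.

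Promoter sequences are shown for 3 of the 6 markers and for cyclin B1, the division gene with the highest ratio to D; they were chosen after the matches were seen, and the window of the marker Rgcc, not shown, held no match. Each line gives the 250 bases before the RefSeq transcript start on GRCm38.p6, 5′ to 3′ on the gene's strand, which is minus for all 4. The windows are chr3:55055056-55055305 for Ccna1, chr2:32982084-32982333 for Slc2a8, chr7:79617658-79617907 for Rhcg and chr13:100786487-100786736 for Ccnb1. Capitals mark matches on either strand to CAGTT (core of MYB sites), TGACGTCA (cAMP response element), TTTGAA (CHR element of cell cycle genes), CCAAT (NF-Y box) or GTTGCC (part of an RFX site).
Ccna1: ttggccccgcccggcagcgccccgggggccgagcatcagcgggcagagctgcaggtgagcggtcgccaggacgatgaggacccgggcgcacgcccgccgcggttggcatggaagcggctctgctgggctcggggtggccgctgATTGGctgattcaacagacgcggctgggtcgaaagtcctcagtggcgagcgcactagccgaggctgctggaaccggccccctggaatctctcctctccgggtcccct
Slc2a8: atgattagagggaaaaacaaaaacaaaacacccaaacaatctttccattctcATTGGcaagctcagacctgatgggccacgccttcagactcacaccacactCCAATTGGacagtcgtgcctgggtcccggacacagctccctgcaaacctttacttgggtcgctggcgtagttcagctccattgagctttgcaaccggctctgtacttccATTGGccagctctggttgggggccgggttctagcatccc
Rhcg: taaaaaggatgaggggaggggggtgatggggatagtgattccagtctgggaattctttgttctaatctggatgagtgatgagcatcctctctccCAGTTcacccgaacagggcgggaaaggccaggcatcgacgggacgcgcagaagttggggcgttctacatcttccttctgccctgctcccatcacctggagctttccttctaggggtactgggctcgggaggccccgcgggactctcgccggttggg
Ccnb1: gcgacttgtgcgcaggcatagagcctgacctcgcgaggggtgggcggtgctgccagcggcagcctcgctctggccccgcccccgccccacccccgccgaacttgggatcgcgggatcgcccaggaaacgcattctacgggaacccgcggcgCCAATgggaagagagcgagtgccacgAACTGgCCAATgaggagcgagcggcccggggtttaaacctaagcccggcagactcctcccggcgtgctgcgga

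In these windows CCAAT was found upstream of Ccna1, Slc2a8 and Ccnb1 and CAGTT upstream of Rhcg and Ccnb1. Over the 149 genes with a window among the 202 that were at least 2-fold higher than in D, 35.6% held CCAAT, 43.6% CAGTT, 15.4% TTTGAA, 13.4% GTTGCC and 3.36% TGACGTCA. Over the 3893 genes with a window among all 4980 compared, the shares were 37.3%, 34.8%, 10.7%, 12.3% and 3.57%. For all 27025 genes with a window they were 34.5%, 39.1%, 16.3%, 10.5% and 1.62%. A match is only a match of letters, and none of these shares was tested.

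Among 28 cyclins and division kinases, 19 could be compared with D, and 7 were at least 2-fold higher and 1 lower, where 4.06% and 9.72% of all genes were. The median log2 ratio was 0.33 against -0.15 for all 4980 genes. The 7 include Ccna1 and Rgcc, which were given as markers of cluster 8. Ccnb1, the cyclin B1 partner of CDK1, went furthest. It was at 5.58, 9.06 and 21.3 CPM in D clusters 1, 3 and 9, 39.7 CPM in MI cluster 14, 141 CPM in cluster 8 and 167 CPM in MI cluster 6, and its log2 ratio to D was 3.24 (3.101 to 3.39). Plk1, a kinase of mitotic and meiotic entry, was at 12.7 CPM in D, 51.2 in MI cluster 14, 70.0 in cluster 8 and 109.7 in MI cluster 6. Cdk1 was at 57.3, 83.9, 157 and 171 CPM and Aurka, which encodes the Aurora A spindle kinase, at 161, 219, 336 and 344 CPM in the same groups. Against MI cluster 6 the log2 ratio was -0.65 (-0.76 to -0.53) for Plk1 and -0.04 (-0.09 to 0.02) for Aurka. Aurkc, the Aurora kinase of meiotic cells, went the other way, at 87.7 CPM in cluster 8 and 69.9 CPM in MI cluster 6, and 7 of the 19 genes of the list were above 0. The 1 gene lower than in D was Ccne2, a cyclin of DNA synthesis, at 28.5 CPM in D and 4.45 CPM in cluster 8. Against MI cluster 6, 0 of 19 were 2-fold higher and 1 was lower (0.212% and 4.47% of all genes). That gene was Cdc25a, a phosphatase that activates CDKs, at 20.0 and 53.3 CPM.

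The compared genes of the APC/C and its substrates differed from D in both directions, all but 1 by less than 2-fold. Of 22 listed genes, 14 were compared with D, and 1 was at least 2-fold higher and 0 lower (4.06% and 9.72% of all genes). The median was 0.33, and 9 of the 14 were above 0. Anapc16, a subunit of the complex, was the furthest below, at 53.3 CPM in D and 27.2 CPM in cluster 8. The higher gene was Ube2c, the ubiquitin-conjugating enzyme that works with the APC/C, at 30.2 CPM in D, 49.1 in MI cluster 14, 93.7 in cluster 8 and 102 in MI cluster 6. Pttg1, which encodes securin, was at 495, 436, 647 and 463 CPM in the same order, so that cluster 8 was the highest of the 4. The activator gene Cdc20 was likewise highest in cluster 8, at 250.4 CPM against 159.5 in D, 173 in MI cluster 14 and 217 in MI cluster 6.

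Lists of the kinetochore, the spindle and condensin had negative median ratios to both other MI clusters. Of 17 spindle and cytokinesis genes compared with MI cluster 6, 0 were 2-fold higher and 7 lower (211 of 4724 genes, 4.47%, of all genes were lower), with a median log2 ratio of -0.89 against -0.04 for all genes. Against MI cluster 14, 4 of 16 were lower (604 of 4965 of all genes, 12.2%), with a median of -0.80. Prc1, which bundles microtubules of the central spindle, was at 183 CPM in D, 251 in MI cluster 14, 87.0 in cluster 8 and 187 in MI cluster 6. Tpx2, an activator of Aurora A, was at 49.2, 114, 54.3 and 113 CPM in that order, so cluster 8 was near D as a whole. Of 5 condensin and compaction genes compared with MI cluster 6, 3 were lower, with a median of -1.14. Smc2, a core ATPase of condensin, was at 45.02, 104, 60.4 and 149.7 CPM. Top2a, the DNA topoisomerase of chromosome axes, was at 63.6, 100.3, 48.9 and 108 CPM. D cluster 9 was low as well, with Tpx2 at 30.9, Prc1 at 102, Smc2 at 34.8 and Top2a at 42.2 CPM. The spindle and cytokinesis list summed to 401 CPM in D cluster 9, 528 in cluster 8 and 590 in D. The condensin list summed to 537, 512 and 724 CPM in these groups.

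The kinetochore and spindle checkpoint list was divided. Against D, 2 of 21 were at least 2-fold higher and 1 lower, where 4.06% and 9.72% of all genes were. Against MI cluster 6, 0 of 17 were higher and 3 lower, where 0.212% and 4.47% of all genes were. Spc25, a subunit of the NDC80 complex that holds microtubules, was at 23.8 CPM in D, 26.5 in MI cluster 14, 90.04 in cluster 8 and 101 in MI cluster 6. Cenpe, a kinetochore motor, was at 16.4, 42.1, 34.0 and 83.1 CPM, and Sgo2a, which protects centromeric cohesin, at 47.7, 87.4, 44.1 and 90.6 CPM. Spc25 thus sided with MI cluster 6, while Cenpe and Sgo2a had log2 ratios to it of -1.29 and -1.04. The third lower gene was Cenpf, a large kinetochore protein.

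Lists of meiotic prophase had negative median ratios to D. Of 11 synaptonemal complex and meiotic cohesin genes compared with D, 0 were 2-fold higher and 5 lower (484 of 4980 genes, 9.72%, of all genes were lower), with a median of -0.72. Sycp1, which encodes the transverse filament of the complex, was at 111.1 CPM in D, 73.8 in MI cluster 14, 29.7 in cluster 8 and 39.3 in MI cluster 6, and Tex12, a central element gene, at 61.2, 23.6, 13.8 and 7.76 CPM. Syce1, another central element gene, went the other way, at 554, 527, 714 and 581 CPM. In the piRNA pathway 6 of 17 were lower than in D and 0 higher, with a median of -0.60, and Piwil1, an Argonaute-family protein that carries piRNAs, was at 314, 242, 112 and 103 CPM. Against MI cluster 6 these lists had 0 of 9 and 1 of 15 genes lower (4.47% of all genes), with medians of -0.40 and -0.23.

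Transcripts for the acrosome, the sperm head vesicle, had a positive median ratio in all 3 comparisons. None of 9 genes compared with D was 2-fold higher or lower, but the median was 0.51 against D, 0.18 against MI cluster 6 and 0.30 against MI cluster 14, where all genes had -0.15, -0.04 and -0.12. Acrbp, a partner of the protease proacrosin, was at 835 CPM in D, 798 in MI cluster 14, 1333 in cluster 8 and 905 in MI cluster 6. Spink2, a protease inhibitor of the acrosome, was at 2981, 2488, 3316 and 2659 CPM, but at 3595 CPM in D cluster 9. All 19 acrosome genes summed to 7215 CPM in D cluster 9 and 7556 CPM in cluster 8. Of the 9 compared with D, 6 were above 0, while Dkkl1, Spaca9 and Dpy19l2 were at -0.06, -0.24 and -0.34. Dpy19l2 was also at -1.04 to MI cluster 6 and -1.14 to MI cluster 14. Of 22 flagellum and axoneme genes compared with D, 1 was 2-fold higher and 2 lower (4.06% and 9.72% of all genes). The higher one was Tekt4, a tektin of flagellar microtubules, at 63.4, 159, 291 and 305 CPM. Dnah8, an axonemal dynein heavy chain, was lower, at 480.3, 639, 203 and 411 CPM. Pgk2, the testis form of phosphoglycerate kinase and a retrogene of an X-linked gene, was at 91.2, 113, 204 and 162 CPM, and the energy metabolism list had a median of 0.01 against D over 16 genes.

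The other lists had medians between -0.59 and 0.17 against D, where all genes had -0.15. Of all genes compared, 4.06% were at least 2-fold higher and 9.72% lower than in D, and 4.47% were lower than in MI cluster 6. The 76 ribosomal protein genes compared had a median of -0.30 and the 11 mitochondrially encoded genes of -0.56, with 0 higher and 1 lower in each list. Against MI cluster 6 both were near 0, at 0.03 and 0.03. Sperm chromatin genes had a median of -0.59 against D over 6 genes, 2 of them lower, and testis translation control genes of -0.36 over 12 genes, 1 of them lower. Of 5 crossover and recombination genes, 2 were lower than in D and 2 lower than in MI cluster 6. Transcription regulators of pachytene cells and spermatids had a median of -0.10 over 16 genes, ubiquitin and proteasome genes of -0.36 over 12, X-derived autosomal retrogenes of -0.04 over 11 and base excision repair genes of -0.03 over 7. Pachytene markers had a median of 0.00 against D over 11 genes, with 1 lower. Transport genes for ammonium, glucose and ions had a median of 0.17 over 9 genes, and the 2 that were at least 2-fold higher than in D were the markers Rhcg and Slc2a8.

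**Figure D3:**
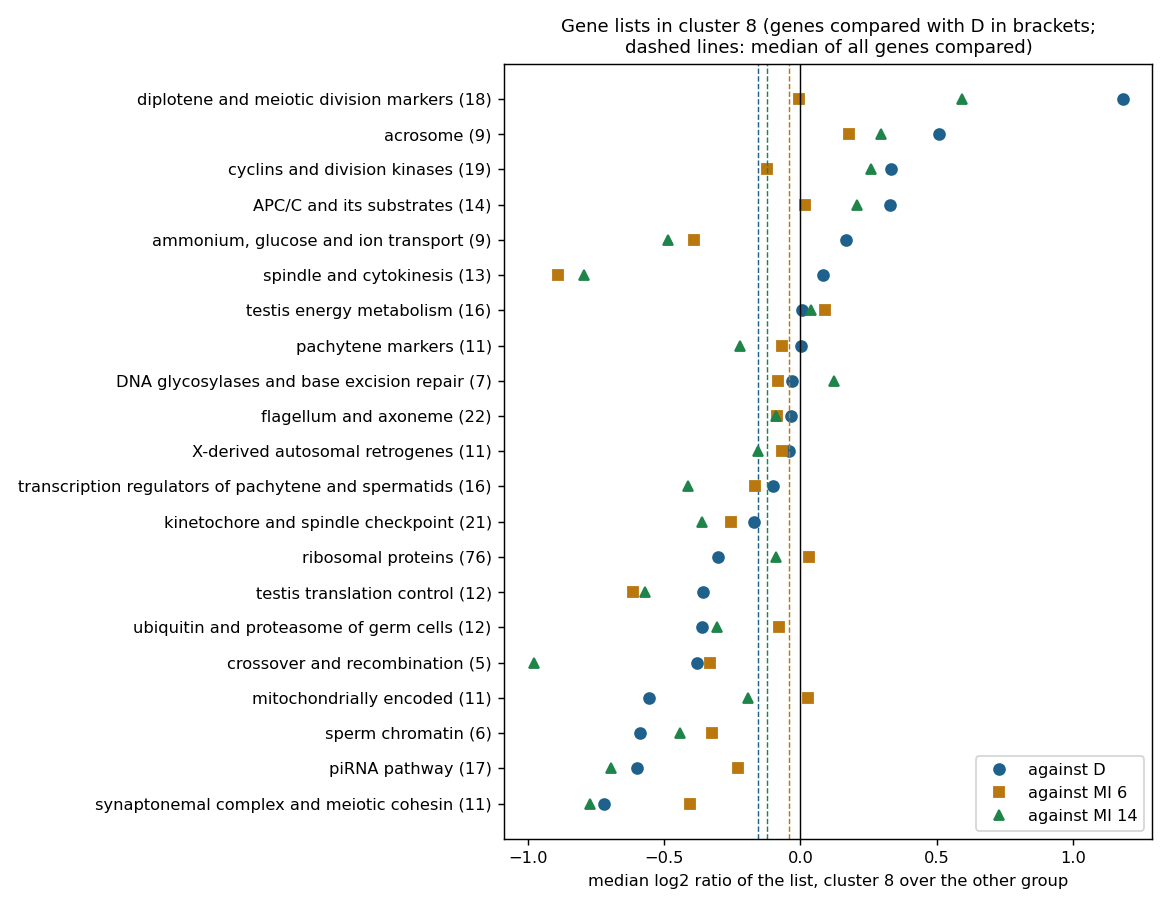
Median log2 ratio of each gene list, cluster 8 over D (circles), MI cluster 6 (squares) and MI cluster 14 (triangles), with the number of genes compared with D in brackets and dashed lines for the medians of all genes compared. Of the lists drawn, division markers, which include the 6 markers of cluster 8, lie furthest to the right against D at 1.18 and near 0 against MI cluster 6, while the spindle list lies at -0.89 against MI cluster 6 and at 0.08 against D.

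The genes in which cluster 8 stood above all 3 other groups did so by less than 2-fold. Of 4335 genes with at least 20 CPM in cluster 8, 1024 (23.6%) were higher than in each of D, MI cluster 6 and MI cluster 14, 0 of them by 2-fold, and the largest log2 ratio to the nearest group was 0.94. The 12 that led by this ratio included Gm5142, Prss47, Gm41336, Syt5, Insl6, 4930449C09Rik, Wbp2, Dnajb13, Sh2d6, Tmem106a and Atp6v0e2. Insl6, an insulin-like peptide gene of male germ cells that is on the list of pachytene markers, was the most abundant of them. It was at 1035 CPM in cluster 8 against 645 in D, 383 in MI cluster 14 and 486 in MI cluster 6. D was not uniform: Insl6 was at 296 and 391 CPM in D clusters 1 and 3 and at 899.5 CPM in D cluster 9, so that cluster 8 differed from D cluster 9 by a log2 ratio of 0.20 (0.17 to 0.23). Syt5, a synaptotagmin of vesicle fusion, was at 23.7 CPM in D cluster 9, 16.2 in MI cluster 14, 40.8 in cluster 8 and 25.3 in MI cluster 6. Dnajb13, a radial spoke protein of the sperm tail, was at 103 CPM in D cluster 9, 83.7 in MI cluster 14, 141 in cluster 8 and 90.9 in MI cluster 6, and went on to 223 CPM in RS.1. Of the 8 of these 12 genes that could be compared between D clusters 9 and 3, 8 were higher in D cluster 9, as were 2042 of all 5060 genes. By at least 2-fold, 2 of the 8 were higher (36 of 5060 genes, 0.711%).

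The low side was larger. Of 4223 genes with at least 20 CPM in each of D, MI cluster 6 and MI cluster 14, 1501 (35.5%) were lower in cluster 8 than in all 3 groups, 48 of them by 2-fold. The 8 lowest were Gm35256, Eml4, Gm45861, Cntrl, Hist1h1t, Trim37, Hnrnpa3 and Crybg3. Trim37, a ubiquitin ligase that acts at centrosomes, was at 407 CPM in D, 547 in MI cluster 14, 171 in cluster 8 and 412 in MI cluster 6. Crybg3 was at 184, 307, 78.5 and 217.5 CPM and Hist1h1t, the testis linker histone, at 48.6, 49.8, 10.2 and 24.9 CPM. Here too D cluster 9 sided with cluster 8, with Trim37 at 206 CPM, Crybg3 at 78.2 CPM and Hist1h1t at 15.7 CPM, and all 8 genes were at least 2-fold lower in D cluster 9 than in D cluster 3 (477 of 5060 genes, 9.43%).

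The lower genes were long. The 211 genes at least 2-fold lower in cluster 8 than in MI cluster 6 had a median gene span of 60.6 kb in the GENCODE M21 annotation, against 19.0 kb for all 4724 genes compared and 2.49 kb for the 10 higher genes. Against MI cluster 14 the medians were 57.8 kb for the 604 lower genes, 7.78 kb for the 43 higher genes and 19.8 kb for all. Median exon bases moved the same way, at 7649 for the genes lower than in MI cluster 6 and 3655 for all compared. Against MI cluster 14 they were 7273 and 3745, and span and exon length were not separated. In 5 classes by span, the shortest genes had a median log2 ratio of 0.08 to MI cluster 6 and the longest of -0.45, and to MI cluster 14 these were 0.05 and -0.68. Genes of the longest class held 8.11% of the UMIs of cluster 8, 9.93% in MI cluster 6, 10.8% in MI cluster 14, 10.7% in D cluster 3 and 8.01% in D cluster 9. Against D cluster 9 no such gradient was seen: the shortest class had a median of -0.10 and the longest of 0.03, and the 205 lower genes had a median span of 11.4 kb.

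D clusters 9 and 3 hold none of the cells of cluster 8 or MI cluster 6, and the same genes differed between them. All of these clusters were cut from the same clustering of the same library. Many cells of cluster 8 and D cluster 9 also shared a cluster at resolutions 0.2 and 0.8. The overlap below is therefore a description and not a separate check. Of the 211 genes lower in cluster 8 than in MI cluster 6, 193 could be compared. All 193 were lower in D cluster 9 than in D cluster 3, as were 3018 of all 5060 genes. By at least 2-fold, 163 (84.5%) were lower, against 477 (9.43%) of all 5060. These 163 made up 34.2% of the 477 genes that were 2-fold lower in D cluster 9. The median log2 ratio of D cluster 9 to D cluster 3 was -1.28 for the 193 genes and -0.13 for all 5060, and by span it went from 0.14 in the shortest class to -0.70 in the longest.

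**Figure D4:**
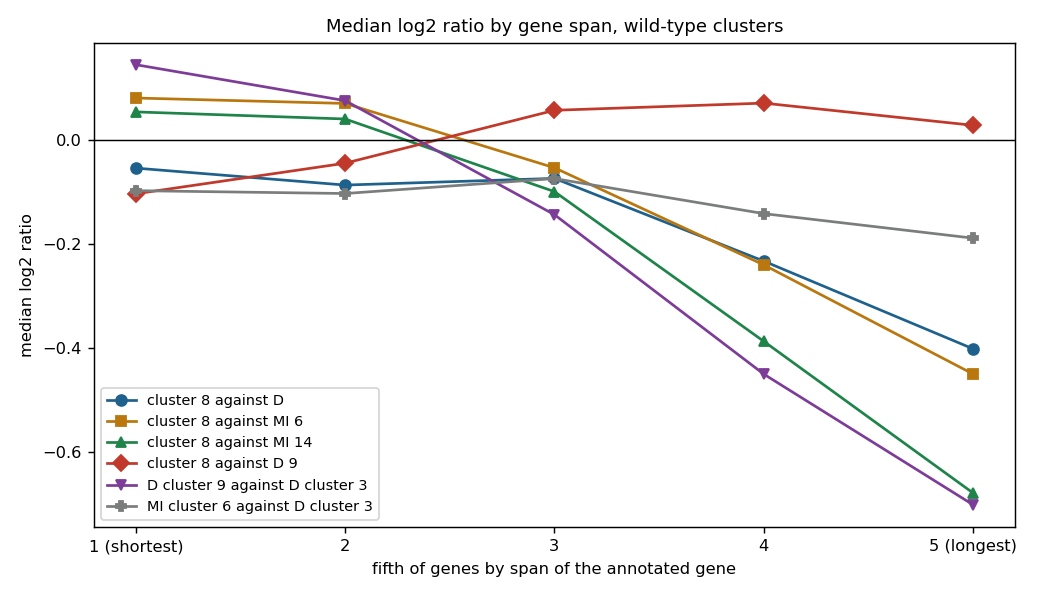
Median log2 ratio in 5 classes of genes by span of the annotated gene, for 6 comparisons between wild-type clusters, the first-named group over the second. Cluster 8 against both other MI clusters and D cluster 9 against D cluster 3 slope down to between -0.45 and -0.70 in the longest class, while cluster 8 against D cluster 9 stays between -0.10 and 0.07.

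Other cell measures moved with this pattern. Malat1, a long non-coding RNA that stays in the nucleus, was at 573, 341 and 99.2 CPM in D clusters 1, 3 and 9, 258 CPM in MI cluster 14, 54.5 CPM in cluster 8 and 126 CPM in MI cluster 6. Cluster 8 was the lowest of the D and MI clusters, with a log2 ratio of -1.21 (-1.33 to -1.09) to MI cluster 6. Under 0.5% mitochondrial UMIs were found in 236 cells (22.4%) of cluster 8 and 155 cells (15.9%) of D cluster 9, against 53 (5.80%) in MI cluster 6, 4 (1.06%) in MI cluster 14, 1 (0.152%) in D cluster 1 and 4 (0.664%) in D cluster 3. Without those cells, 111 genes were at least 2-fold lower than in MI cluster 6 in place of 211, and the longest class had a median of -0.41 against MI cluster 6 and -0.62 against MI cluster 14. Malat1 was at 13.5 CPM in the 236 cells and at 65.8 CPM in the other 817. With all cells the longest class had medians of -0.45 against MI cluster 6 and -0.68 against MI cluster 14. The part of the mitochondrial share and of Malat1 in the gradient was not tested. In RS.1, the next group in the score, 86 cells (25.8%) were under 0.5% mitochondrial UMIs and Malat1 was at 68.9 CPM. Genes of the longest class held 8.17% of the UMIs of RS.1, so these measures were not particular to cluster 8 and D cluster 9.

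Against MI cluster 6 the 10 genes at least 2-fold higher in cluster 8 included Insl6, Gm35667, Slain1, 4930477E14Rik, Tmem9b, Naxe, 1700018L02Rik and Mrpl37. Naxe, which repairs hydrated NAD(P)H, was at 90.4 CPM in D, 38.4 in MI cluster 14, 67.9 in cluster 8 and 31.7 in MI cluster 6, and Mrpl37, a mitochondrial ribosomal protein, at 113, 61.1, 115 and 55.6 CPM. Of the D and MI clusters, D cluster 9 had most of both, at 123 and 147 CPM. The lowest against MI cluster 6 were Fam177a, Gm45861, Ncapd3, Syne2, Ankhd1, Gm35256, Pom121l2 and Cox16. Syne2, a giant protein that links the nucleus to the cytoskeleton, was at 3.81 CPM in D, 23.4 in MI cluster 14, 15.3 in cluster 8 and 51.4 in MI cluster 6, so it was lower than in MI cluster 6 and higher than in D. Ncapd3, a subunit of condensin II, was at 19.6, 32.5, 12.03 and 40.6 CPM.

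Because the score spans of the MI clusters differ, the comparison was also made between the 491 cluster 8 cells and the 730 MI cluster 6 cells with a score between -3816.6 and -2076.6. Insl6 kept a log2 ratio of 1.08 (1.03 to 1.13), Crybg3 of -1.39 (-1.52 to -1.27) and Malat1 of -1.02 (-1.17 to -0.87). Ccnb1 was at 88.1 CPM in cluster 8 and 164 CPM in MI cluster 6, a ratio of -0.90 (-1.03 to -0.77) in place of -0.25 over all cells, and Ccna1 was at 0.08 (0.01 to 0.14). Within this score range, cluster 8 cells had less cyclin B1 mRNA than MI cluster 6 cells and about as much cyclin A1 mRNA. The cells were not matched by score inside the range, and the part of this in the ratios was not tested. In this range 33 genes were 2-fold higher and 227 lower, against 10 and 211 of 4724 genes over all cells.

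Against D as a whole, the 8 genes with the highest ratio were Ccnb1, 1700067K01Rik, A930018P22Rik, Jam2, Plk1, Rnpep, Fcmr and 1700034J05Rik. A930018P22Rik was at 31.1 CPM in D, 31.1 in MI cluster 14, 229 in cluster 8, 246 in MI cluster 6 and 229 in RS.1, and 1700067K01Rik at 9.37, 7.40, 80.9, 60.8 and 86.1 CPM. Jam2, a junctional adhesion molecule, was at 6.42, 14.8, 40.5 and 44.7 CPM in the first 4 of these groups. Of these, A930018P22Rik and 1700067K01Rik were at or below their D level in MI cluster 14 to the digits given, while Jam2, and Plk1 as given above, lay between D and cluster 8 there. The lowest were Chd3os, Ccne2, R3hdm2, Exosc7, AC125141.3, Eef1e1, Malat1 and Hist1h1t; Chd3os is antisense to another gene by its name, and reads of overlapping genes may be shared. Scaling by the median of ratios turned 202 higher and 484 lower genes into 272 and 309, since the median ratio to D was -0.15.

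Within cluster 8, cells were ordered by the score and cut into 5 bins of 210 or 211 cells. Of 2644 genes with at least 50 CPM, 49 (1.85%) were at least 2-fold higher in the last bin than in the first and 117 (4.43%) lower, while 355 climbed and 306 declined at every step. The score was made from the expression of these cells, so this is a description of the order. Ccnb1 was at 52.3, 84.2, 111.0, 215 and 269.6 CPM from bin 1 to bin 5, a log2 ratio of 2.36 (2.11 to 2.63), and Ccna1 at 287, 378.5, 468, 569 and 649 CPM, a ratio of 1.18 (1.06 to 1.30). Rhcg, Sptbn4, Slc2a8 and Rgcc had ratios of 0.81, 0.65, 0.73 and 1.00, and Neil3 of 0.18 (-0.12 to 0.48). Both cyclin mRNAs climbed at every step, whereas the interval of Neil3 held 0.

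The 6 genes with the highest ratio were 1700067K01Rik, A930018P22Rik, Ccnb1, Prss46, Rhno1 and 1700034J05Rik. Rhno1, a partner of the 9-1-1 DNA damage clamp, was at 26.3 CPM in bin 1 and 96.5 in bin 5, and Prss46, by its name a serine protease, at 21.9 and 100.2 CPM. Both went on to 77.7 and 239 CPM in RS.1 and to 139.6 and 484 CPM in the next round spermatids, RS.2. The 6 with the lowest were Mllt10, Hmgb2, 1700006A11Rik, Ccp110, Fam206a and Baz1a. Hmgb2, a chromatin protein of the high mobility group, was at 284, 215.5, 154, 97.3 and 52.5 CPM, and Ccp110, a centriole capping protein, at 96.1, 72.4, 48.9, 38.8 and 18.9 CPM. The 13 mitochondrially encoded genes summed to 10018 CPM in bin 1 and 4983 CPM in bin 5, and the median share of mitochondrial UMIs went from 0.980% to 0.561% while the median UMIs were 12572 and 13053. Ribosomal protein UMIs had a median share of 8.49% and 7.39%. Over the 1053 cells of this library the score had Pearson's r of -0.47 with the mitochondrial share, -0.63 with the ribosomal share and -0.05 with the UMI total, given as a description.

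**Figure D5:**
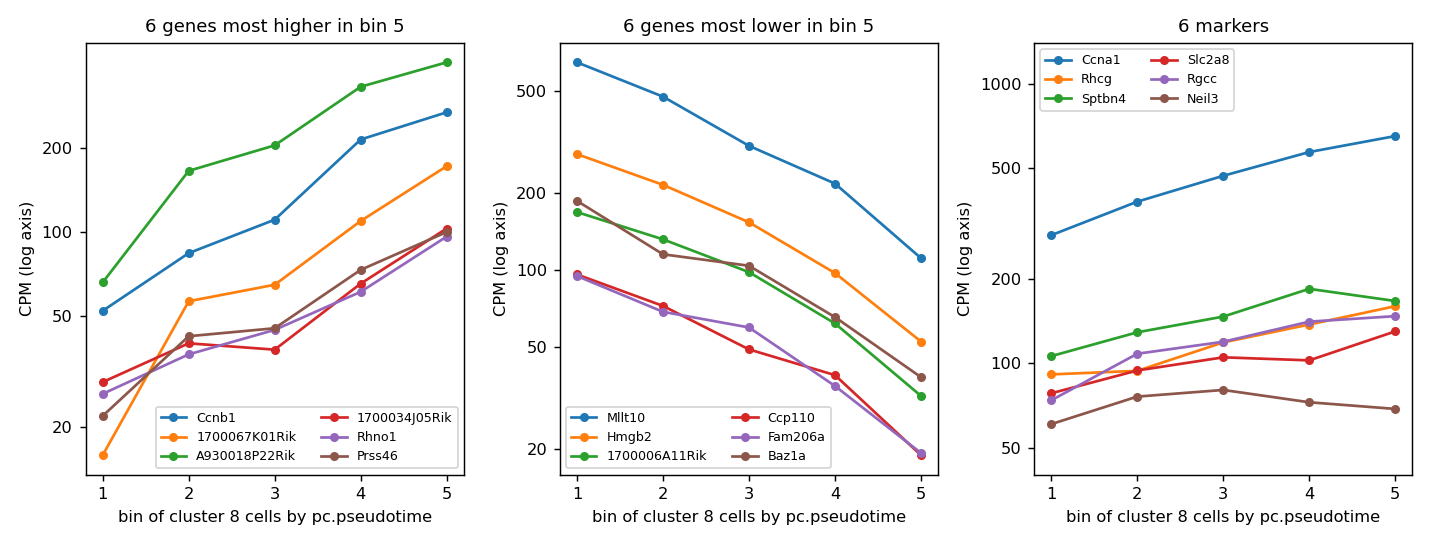
Level in CPM (log axis) across 5 bins of cluster 8 cells ordered by the authors' pseudotime score, for the 6 genes most higher and the 6 most lower in bin 5 and for the 6 markers. Ccnb1 goes from 52.3 to 269.6 CPM and Hmgb2 from 284 to 52.5 CPM, and Neil3 ends near its starting level.

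The X chromosome, silenced in male meiotic prophase, stayed low until the last bin. All 1088 X-linked genes together summed to 183 CPM in cluster 8, against 142 in D, 105 in MI cluster 14, 166 in MI cluster 6 and 2880 in RS.1. By bin the sum was 124, 171, 117, 138 and 397 CPM. In bin 5, 171 of 210 cells had at least 1 of the 1073 X-linked UMIs, and the 5 cells with most held 188. In bins 1 to 4, 146 of 211, 152 of 211, 153 of 210 and 154 of 211 cells had at least 1 X-linked UMI. Slxl1, an X-linked gene of spermatids, had a log2 ratio of 3.85 (2.95 to 5.08) between bins 5 and 1, and Tsga8, expressed in spermatids, of 1.80 (1.44 to 2.18). Round spermatid markers as a list summed to 356 CPM in bin 1 and 442 CPM in bin 5, and to 1133 CPM in RS.1, and the part of free RNA or of cells near RS.1 in these values was not tested.

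Spread between cells was measured as the variance divided by the mean, which is 1 for pure counting and is pulled toward 1 at low counts. With each cell thinned to 6000 UMIs, 1015 cells were kept, and over 1887 genes with a mean of at least 0.5 UMIs the median of the variance divided by the mean was 1.05. At least 1.5 was reached by 27 genes. At 11500 UMIs, with 822 cells, it was reached by 85 of 2877 genes. Ccnb1, with a 5-bin log2 ratio of 2.36, was at 1.47 with 6000 UMIs, under this limit, so a value near 1 does not show that cells are alike. The 8 highest were mt-Co1 at 3.71, mt-Co2 at 3.05, Hsp90aa1 at 2.96, mt-Atp6 at 2.92, Calm2 at 2.61, mt-Cytb at 2.54, mt-Co3 at 2.43 and Atxn7l3b at 2.34. Of these, 5 are encoded in mitochondria. Hsp90aa1 encodes an inducible HSP90 chaperone and Calm2 a calmodulin. Hsp90aa1 and Atxn7l3b also declined along the score, from 2980 to 1119 CPM and from 1637 to 507 CPM.

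Since no knockout-labelled cell fell in cluster 8, its genes were looked at in lP, the last stage well filled in both libraries, with 827 wild-type and 1945 knockout-labelled cells. Ccna1 was at 24.6 CPM in wild-type lP and 6.14 CPM in knockout-labelled lP, a log2 ratio of -2.00 (-2.27 to -1.73), and Slc2a8 at 16.7 and 0.171 CPM, a ratio of -6.53 (-7.85 to -5.59). Of the 6 markers 5 were at least 2-fold lower in the library labelled Zfp541-/-, and Rgcc was the 1 that was higher, at 4.14 and 14.6 CPM. Over the 4335 genes with at least 20 CPM in cluster 8, 19.7% were lower and 5.19% higher. Over the 6016 genes with at least 20 CPM in either lP group, which include Ccna1 alone of the markers, 768 (12.8%) were lower and 987 (16.4%) higher. Of the 12 genes furthest above D and both other MI clusters, 8 were at least 2-fold lower and 0 higher. Of the 202 genes at least 2-fold higher in cluster 8 than in D, 112 (55.4%) were lower and 20 (9.90%) higher, against 854 and 225 of those 4335 genes. The knockout-labelled cells were deeper, with a median of 23690 UMIs against 9210, and each marker was at 24.6 CPM or less in wild-type lP. They also lay earlier in the score, with a median of -13096 against -11784 in wild-type lP. The genes looked at here were chosen for high levels in later cells, and the part of this offset in their lower levels was not tested. Genotype and library cannot be told apart here.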

How the data were processed

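The deposited matrices hold counts of UMIs per gene and cell for 31053 genes, made with Cell Ranger 3.1.0 and mm10, per the submitters' processing notes, which also name Seurat 3.2.0. The authors' cell table gives stage, cluster numbers, a pseudotime score and the percent of mitochondrial and ribosomal UMIs, per the file headers. Counts were summed over cells by library, stage and cluster; CPM, log2 ratios and exact intervals were computed with Python 3.11.15, numpy 2.4.6 and scipy 1.17.1, and the steps were tested on simulated data. Library totals over annotated cells were 108612781 (wild type) and 119675250 UMIs. Gene spans come from GENCODE M21 on GRCm38, the build of mm10, with 30934 genes matched by identifier. The genes named are the 6 markers, the 12 furthest above and 8 furthest below D and both other MI clusters, the 8 highest and 8 lowest in each comparison, 4 most abundant and 2 most different genes of each list, 6 rising and 6 falling genes across bins and the 8 most variable; other list members were chosen after their values were seen. A gene that met this rule is not reported here. A list needed 5 compared genes for a median. Members and lists were chosen with earlier results of these data known. Alternatives changed scaling, cell weights, depth, gene filters, counts added, cells kept, the D group and bins.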

Additional observations from a re-analysis of the deposited data

How the results depend on the processing

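Counts of genes at least 2-fold apart depended most on the filter on low levels. With at least 3 counts in place of 20 CPM they were 1317 higher and 3612 lower against D, 831 and 1321 against MI cluster 6, and 1045 and 2403 against MI cluster 14. With 50 CPM they were 128 and 201, 5 and 131, and 24 and 331. Median-of-ratios scaling gave 309 lower genes against D and 80 higher against MI cluster 14. Giving D clusters 1, 3 and 9 equal weight gave 732 lower genes, and using D cluster 9 alone 205, where Crybg3 turned from lower to level, at 0.0056. Leaving out cells under 0.5% mitochondrial UMIs gave 111 lower genes against MI cluster 6, and the score range of MI cluster 6 gave 33 higher; these settings and D cluster 9 alone were chosen after seeing the data. With 10 bins, 96 genes were higher and 226 lower in the last bin. Thinning to 11500 UMIs left 822 cells and 85 genes with a variance of at least 1.5 times the mean. Of 1402 values of single genes and lists under these alternatives, 1137 moved by less than their interval, 264 moved by more with the same sign, and 1 changed sign. No paired analysis was possible because each genotype has 1 library. Intervals for low genes are wide, and 1 library per genotype leaves variation between mice unmeasured.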
